A study of Mus musculus with 2 samples.

Results

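The genes described here encode the MYC, MAX and MXD network of transcription factors: Myc, Mycn, Max, Mxd1, Mxd3, Mxd4, Mxi1, Mnt, Mlx and Mga. They are 10 of 20618 genes with a current symbol on the array, and were taken as every non-control probe whose accession maps to 1 of these symbols, which gave 12 probes. The study sorted mouse leukaemia cells, labelled B-cell acute lymphoblastic leukaemia (B-ALL), with SoNar, a fluorescent sensor of the cytosolic NADH/NAD+ ratio. SoNar-high and SoNar-low cells came from bone marrow, are labelled as 8 weeks of age, and were separated by the sensor's fluorescence ratio between a violet and a blue wavelength. Total RNA of each was hybridised to 1 Agilent 1-colour array, so 2 arrays make up the series and no difference below has a replicate or a test. The sample titles name the arrays N-myc-high and N-myc-low in place of SoNar-high and SoNar-low. How the leukaemia was made, the mouse strain and the number of animals behind each RNA were not given in the sources used here.

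MYC and MYCN are transcription factors that drive growth and proliferation, and each binds DNA only as a dimer with MAX. The MXD proteins, of which Mxi1 encodes a member, and MNT also pair with MAX, bind the same E-box and recruit the SIN3 and histone deacetylase corepressor. MLX is a second hub that pairs with some MXD proteins, with MNT and with the glucose-responsive factors MLXIP and MLXIPL, and MGA pairs with MAX inside a Polycomb repressor complex. Deregulated MYC or MYCN is a known driver of B-cell leukaemia and lymphoma, and in early B cells the MYC family links growth factor signals to cell division.

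The network's DNA motif, the E-box CACGTG, lies in the promoter of some of its own genes, and the stretches are shown because the members that differed most between the arrays are among them. RefSeq promoter windows of build GRCm38.p6, reaching from 250 bases before to 50 bases after a gene's start, were found for 9 of the 10 genes, and for Myc none was used. The motif reads the same on both strands and was searched as its exact 6 letters. It was found once each in the windows of Max, Mnt, Mlx and Mxd4, beginning 3, 123, 40 and 219 bases before the start in that order, and not in those of Mycn, Mxd1, Mxd3, Mxi1 (3 windows) and Mga. Of all 32851 promoter windows, 2349 (7.15%) held it. Counted by gene, as for the members, it was in a window of 1047 (12.3%) of 8481 genes detected on both arrays. Each line shows 60 bases on the gene's own strand, 5′ to 3′, with the motif in capitals: Max at chr12:76962219-76962278 (minus strand), Mnt at chr11:74830774-74830833 (plus strand), Mlx at chr11:101087223-101087282 (plus strand) and Mxd4 at chr5:34187897-34187956 (minus strand). The last 30 bases shown for Max lie after its start, and the other stretches lie wholly before it.
Max: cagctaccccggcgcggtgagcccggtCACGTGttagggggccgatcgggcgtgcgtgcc
Mnt: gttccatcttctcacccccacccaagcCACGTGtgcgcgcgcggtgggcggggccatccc
Mlx: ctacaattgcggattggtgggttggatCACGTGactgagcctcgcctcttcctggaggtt
Mxd4: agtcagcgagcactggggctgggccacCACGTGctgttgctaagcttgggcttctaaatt

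Each array held 43020 non-control spots. By the scanner software's call 44.8% of them were well above background for SoNar-high cells and 72.9% for SoNar-low cells. The lowest signal well above background was 46.4 intensity units on the SoNar-high and 19.7 units on the SoNar-low array, and the 75th percentile, to which signals were scaled, was 475 units for SoNar-high and 525 units for SoNar-low. The arrays were scanned on different days, and an effect of the scan cannot be told apart from one of the population. For 197 probes with 10 spots each that both arrays measured, a difference between 1 spot of each array had a median SD of 0.15 (log2), which covers spots and not animals or sorts. Of 14 fixed B-lineage markers 9 were measured on both arrays, while the probes of Igll1, Rag1, Rag2 and Il7r were not well above background on either. Markers of other cells differed between the arrays. The median difference (SoNar-high minus SoNar-low, log2) was 0.26 over the 9 measured B-lineage markers, with 0 past 2-fold. It was -0.70 over 9 measured neutrophil markers of 10, -0.37 over 5 monocyte and macrophage markers of 8, -1.12 over 4 T and NK cell markers of 9, -1.07 over 4 erythroid markers of 8 and -1.93 over 3 airway and alveolus markers of 7, with 2 markers of each of these lists at least 2-fold lower and 0 higher. Over 6 measured neuron markers of 10 it was 1.398, with 3 at least 2-fold higher and 1 lower. The summed scaled signal of a list, in multiples of the 75th percentile, is weighted by its brightest probes and does not always share the side of the median. It was 87.5 for SoNar-high and 71.6 for SoNar-low cells over the B-lineage list, 40.6 and 50.5 over the neutrophil, 11.1 and 8.52 over the monocyte and macrophage, 5.18 and 6.31 over the T and NK cell, 49.6 and 30.6 over the erythroid, 4.43 and 4.15 over the neuron, and 0.544 and 3.93 over the airway and alveolus list. The part of these cells in the values below was not tested. In RNA of a whole population, fewer cells of a type and less RNA per cell cannot be told apart.

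Of the 10 network genes 7 were measured, meaning that at least 1 probe was well above background on both arrays, as it was for 51% of all 20618 genes. Max and Mnt stood out as higher in the SoNar-high population, each by nearly 2-fold, while Mlx, Mga and Mxd3 differed by 1.19-fold or less. The values of Mxd1 and Mxd4 were also within 1.19-fold, but each is a mean of 2 probes on opposite sides of 0. For Mxd1 these probes lay at 0.36 and -0.32 (SoNar-high minus SoNar-low, log2), so its small mean does not show an absence of change. Myc and Mxi1 were detected in SoNar-low cells alone and Mycn on neither array. At a threshold of 2-fold, which sets a size and carries no p-value, 0 members were higher, against 1.68% of 10521 measured genes, and 0 were lower, against 4.88%. At 1.5-fold 2 of the 7 were higher, against 16.6% of measured genes, and 0 were lower, against 11.4%, and at 3-fold 0 members lay on either side, against 0.266% of genes higher and 1.4% lower. The share of higher genes among all those past 2-fold was 25.7% here and ranged from 6.67% to 95.9% over the scalings tried. The median member difference was 0.07 and the median of all measured genes 0.17 (SoNar-high minus SoNar-low, log2), so members are given below also relative to the median gene. Signals are not compared between genes, because each probe has its own brightness.

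**Figure D1:**
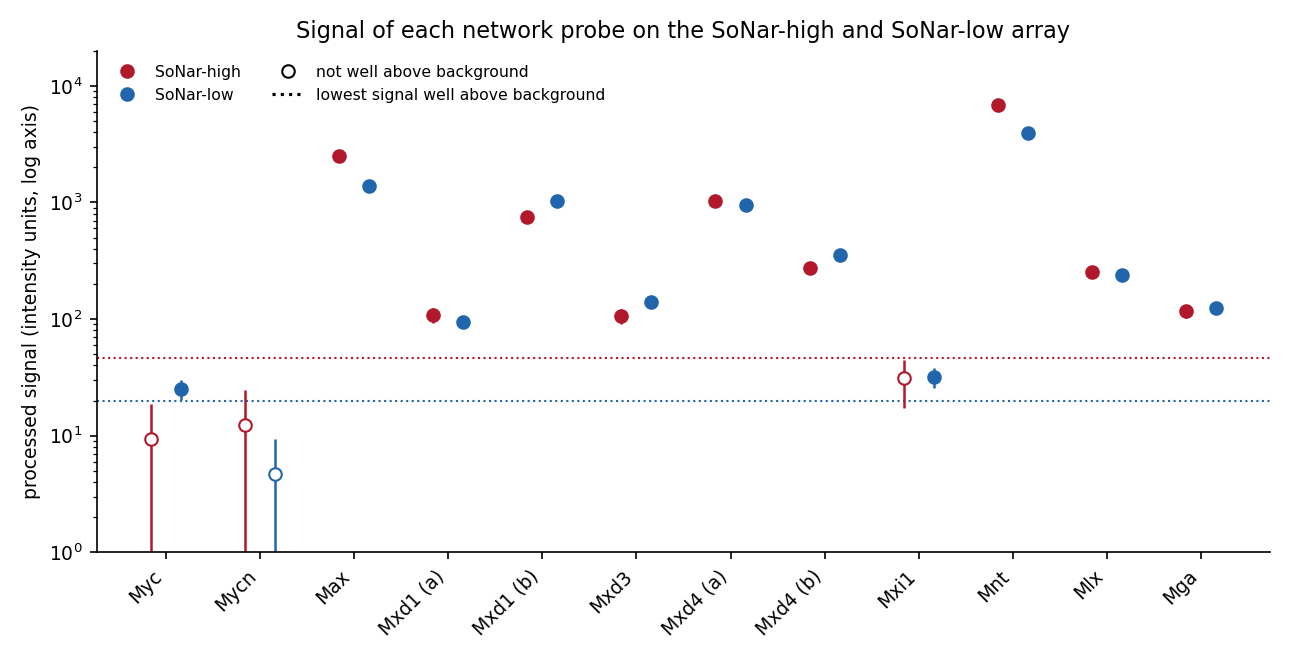
Processed signal (intensity units, log axis) of the 12 network probes, SoNar-high (red) left of SoNar-low (blue); bars are the scanner software's error, running below the axis for the dimmest probes, open points are not well above background, and the dotted lines mark each array's lowest signal well above background. The 9 filled pairs lie close together except Max and Mnt, where SoNar-high is above SoNar-low, and (a) and (b) mark the probes of a gene in the order of their identifiers.

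Myc and Mycn, which encode the activating arm of the network, did not pass the detection call in SoNar-high cells. The Mycn probe gave 12.3 units on the SoNar-high and 4.70 units on the SoNar-low array, with scanner errors of 12.3 and 4.68 units. Each signal was about as large as its error, so no difference can be read for the gene that the sample titles name. The Myc probe gave 9.38 units (error 9.33) on the SoNar-high and 25.1 units (error 4.72) on the SoNar-low array. It passed the detection call in SoNar-low cells alone, and its scaled SoNar-low level, 0.0478, lay under the SoNar-high array's detection limit of 0.0977, so no fold can be given. Of all 20618 genes 26.4% were likewise seen in SoNar-low cells alone, 22.5% on neither array, 0.0534% in SoNar-high cells alone and 0.0097% by a different probe on each array. The files hold no probe sequences, so which part or form of the Myc and Mycn transcripts the probes report is not known here.

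Max, whose protein is the shared partner of the MYC, MXD and MNT proteins, was the member with the largest difference. Its probe gave 2489 units (scanner error 249) on the SoNar-high and 1381 units (error 138) on the SoNar-low array. Scaled to the 75th percentile this was 5.24 and 2.63, a log2 difference of 1.00 (0.995, SoNar-high minus SoNar-low) with an error of 0.20 from the 2 scanner errors, or 1.99-fold. The difference is several times the spread between spots, but no second probe and no second array stand behind it. Probes of the same gene spread more widely than spots. Their differences had a median SD of 0.32 (log2) over 2394 genes with several measured probes. Of the 10521 measured genes 182 (1.73%) had a difference at least as high, Max included. Bright genes were somewhat higher on the SoNar-high array in general: the 1000 genes nearest to Max in level had a median of 0.30, and Max lay 0.69 above that.

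Mnt, which encodes the broadly expressed MAX-binding repressor that competes with MYC, had the second largest difference. Its probe gave 6907 units (scanner error 691) on the SoNar-high and 3953 units (error 395) on the SoNar-low array. The scaled levels were 14.5 and 7.53, a log2 difference of 0.95 ± 0.20 (scanner error) or 1.93-fold. As for Max, the difference was larger than the spread between spots, but rests on a single probe and 1 array per population. The genes nearest to Mnt in level had a median of 0.34, leaving Mnt 0.61 above them, and 241 measured genes (2.29%) had a difference at least as high. Relative to the median gene Max lay at 0.83 and Mnt at 0.78. Both lie at the edge of the 2-fold threshold: with the 75th percentile taken over probes after averaging their spots, an alternative chosen after seeing the data, Max was at 1.05 and Mnt at 1.01.

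**Figure D2:**
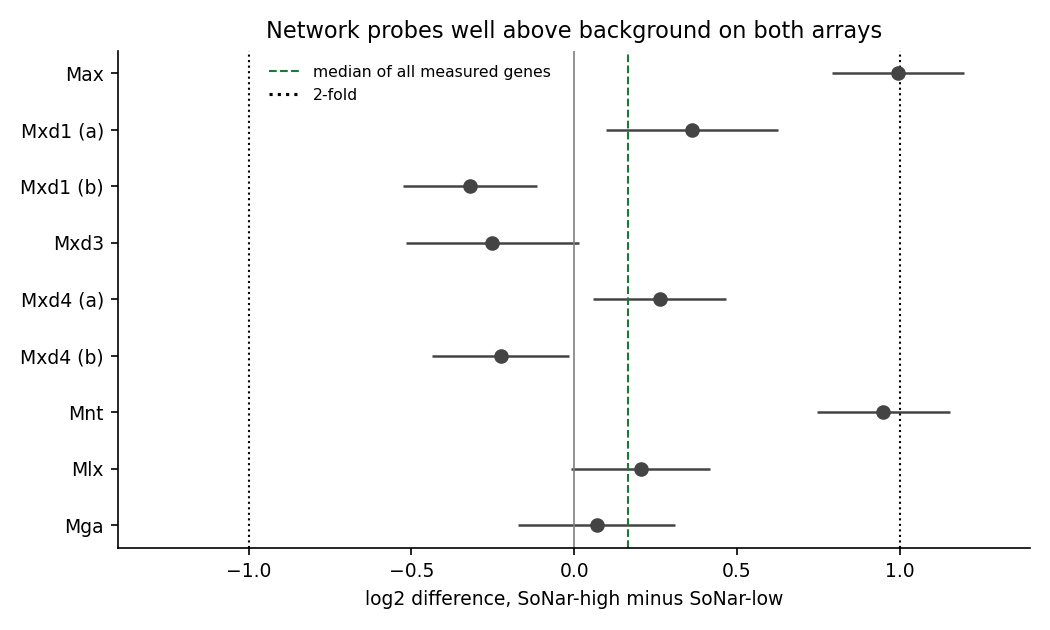
Log2 difference (SoNar-high minus SoNar-low, horizontal axis) of the 9 network probes well above background on both arrays; bars are the error propagated from the scanner software's error of each signal, the dashed line is the median of all measured genes (0.17) and dotted lines mark 2-fold. Max (1.00) and Mnt (0.95) lie near the upper 2-fold line, and the paired probes of Mxd1 and of Mxd4 lie on opposite sides of 0.

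The MXD repressors, which take the place of MYC on MAX as cells stop dividing and differentiate, lay on both sides of the median gene by their single probes. Mxd1 was measured by 2 probes that disagreed. A_51_P490795 gave 109 units on the SoNar-high and 93.6 units on the SoNar-low array, a log2 difference of 0.36 ± 0.26 (scanner error). A_55_P2025248 gave 752 units on the SoNar-high and 1039 units on the SoNar-low array, a log2 difference of -0.32 ± 0.21. The probes thus point opposite ways, and their mean of 0.02 stands for neither. Their gap of 0.68 was as wide or wider in 30.2% of the 2021 genes with 2 measured probes, whose median gap was 0.43.

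Mxd4, an MXD gene expressed in resting and differentiating cells, behaved in the same way. A_55_P2117928 gave 1037 units on the SoNar-high and 956 units on the SoNar-low array (0.26 ± 0.20), and A_55_P2172121 gave 273 units on the SoNar-high and 353 units on the SoNar-low array (-0.23 ± 0.21). The mean was 0.02, and 45.4% of genes with 2 measured probes had probes on opposite sides of 0. Mxd3, the MXD gene expressed in dividing cells in S phase, gave 106 units (scanner error 16.1) on the SoNar-high and 140 units (139.5, error 14.7) on the SoNar-low array. At -0.25 ± 0.27 it was the lowest measured member, 0.42 under the median gene, but within 1 scanner error of 0. The 1000 genes nearest to Mxd3 in level had a median of -0.19, and relative to them it lay at -0.06. Over the settings tried its difference ran from -0.49 to 0.36. Mxi1, the MXD gene first found as a MAX interactor, gave 31.0 units (error 13.6) on the SoNar-high and 31.96 units (error 6.23) on the SoNar-low array. The signals lay within the error of each other, but only the one of SoNar-low cells passed its array's detection call, so no fold can be given.

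Mlx, the hub that pairs with MLXIP and MLXIPL, gave 251 units (scanner error 27.2) on the SoNar-high and 241 units (error 24.5) on the SoNar-low array, a log2 difference of 0.20 ± 0.21 that lay 0.04 from the median gene. Mga, the MAX partner of the Polycomb complex, gave 118 units (error 15.1) on the SoNar-high and 124 units (error 13.1) on the SoNar-low array, a difference of 0.07 ± 0.24. Neither differed from 0 by more than its scanner error. Across the 7 measured genes 3 lay above the median gene (Max, Mnt and Mlx) and 4 below it (Mga, Mxd1, Mxd4 and Mxd3). For Mxd1 and Mxd4 that side is the side of a mean, since their probes lay on both sides of the median gene. The split also depends on the reference. Relative to the 1000 genes nearest in level Mga lay at 0.27, Mlx at 0.19, Mxd1 at -0.03, Mxd3 at -0.06 and Mxd4 at -0.17.

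**Figure D3:**
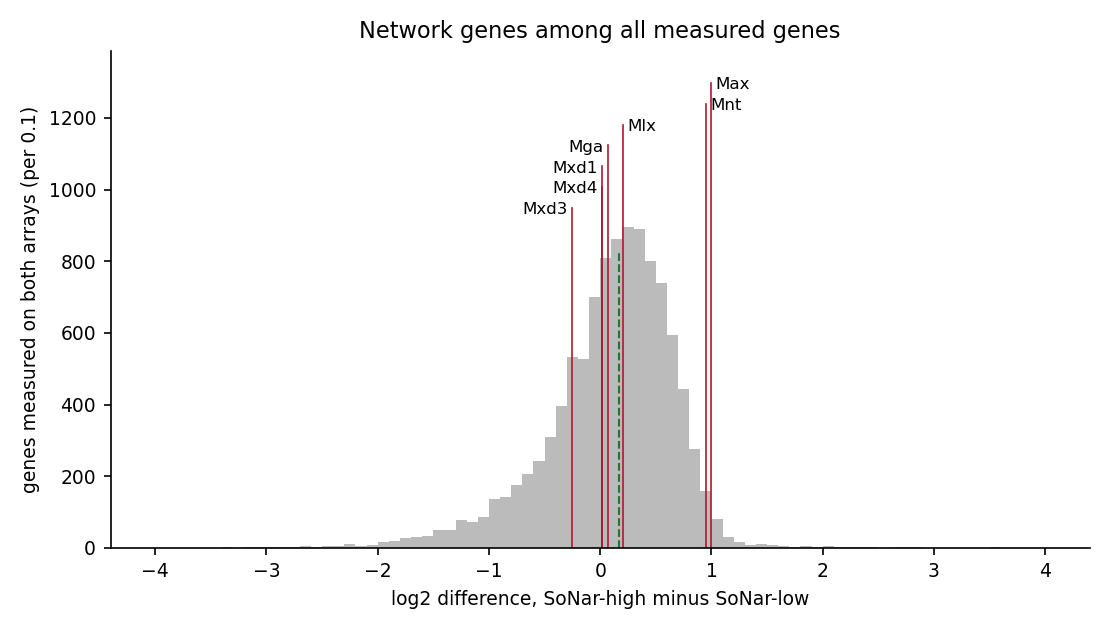
Number of genes measured on both arrays (vertical axis, per 0.1 log2) by log2 difference, SoNar-high minus SoNar-low; red lines mark the 7 measured network genes and the dashed line the median gene (0.17). Max and Mnt lie in the upper tail, where 1.73% and 2.29% of genes are as high or higher, and the other 5 lie in the body of the distribution.

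The 4 genes with the E-box shown above were Max (1.00), Mnt (0.95), Mlx (0.20) and Mxd4 (0.02), while the measured members without it were Mga (0.07), Mxd1 (0.02) and Mxd3 (-0.25). Across all 8481 measured genes with a promoter window, 1047 held the motif. Their median difference was 0.21, against 0.16 for the genes without it, and their median scaled level was also higher, at 0.65 against 0.32 (log2). Of the genes with the motif 1.72% were at least 2-fold higher and 3.44% lower, against 1.63% and 4.91% of those without it. The part of the level in this small difference was not tested. A motif in these windows is a match of letters and not a measured binding site.

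The glucose-responsive partners of MLX lay below the median gene. Mlxip, which encodes the glucose-responsive factor MondoA, averaged 573 units on the SoNar-high and 944 units on the SoNar-low array (geometric mean of 2 probes), a log2 difference of -0.58 with probes at -0.998 and -0.15. Mlxipl, which encodes the factor ChREBP, gave 247 and 485 units in the same way, a difference of -0.83 with probes at -1.43 and -0.22. Both genes lay below the median gene by both probes, and relative to the median gene they ranged from -0.74 to -0.37 and from -1.76 to -0.78 over 13 alternative settings. Mycl, the other MYC family gene, gave 20.9 units on the SoNar-high array, not well above background, and 91.0 units on the SoNar-low array, a level at least 1.78-fold lower in SoNar-high cells. Target genes that MLX complexes switch on in response to glucose did not share that side: of 7 genes 4 were measured, with 0 past 2-fold either way, and their median of 0.48 lay 0.32 above the median gene. The highest were the Krüppel-like factor gene Klf10 (0.83) and the fatty acid synthase gene Fasn (0.64), and the lowest were Txnip, the classic glucose-responsive target (0.33), and the acetyl-CoA carboxylase gene Acaca (-0.07), with probes from -0.998 to 0.66. The 3 unmeasured genes were all seen in SoNar-low cells alone. G6pc gave 48.3 units on the SoNar-high array, not well above background, and 188 units on the SoNar-low array. Scaled, this was 3.53-fold lower in SoNar-high cells, a ratio with an undetected signal and not a bound. For the others the scaled SoNar-low level lay under the SoNar-high array's detection limit.

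Genes that MYC is known to activate had a median close to that of all genes. Of 33 genes 32 were measured, 0 passed 2-fold on either side, 15 lay above and 17 below the median gene, and their median was 0.14 against 0.17 for all genes. The highest were Odc1, which encodes the rate-limiting enzyme of polyamine synthesis (0.67, probes from 0.30 to 1.00), and the RCC1 guanine exchange factor gene Rcc1 (0.60). The lowest were the telomerase gene Tert (-0.95) and the proliferation-associated gene Pa2g4 (-0.57), whose 3 probes ran from -2.07 to 0.34. Ncl, which encodes nucleolin, was at 0.15, with probes at -0.26 and 0.55. Over the alternative settings the list's median lay from -0.18 to 0.14 relative to the median gene, so its side is not settled, and with median scaling, which moved the median gene to 0.78, 7 of its 32 genes passed 2-fold higher, as did 3306 of all 10521 genes. Among 27 of these genes with a promoter window, 8 (29.6%) held the E-box, against 12.3% of all measured genes with a window. The 8 had a median of 0.42 and ran from -0.17 to 0.55, and the others had one of 0.09 and ran from -0.95 to 0.67. Over all measured genes the same split was 0.21 against 0.16. The ranges overlap, and the part of the level in this difference was not tested.

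The coactivators that MYC recruits had a median of 0.14 over 13 measured genes of 15, with 0 past 2-fold. The highest were the ATPase gene Ruvbl1 (0.65) and Trrap, the scaffold of acetyltransferase complexes (0.43), and the lowest the acetyltransferase gene Ep300 (-0.78) and the elongation factor cyclin gene Ccnt1 (-0.71). Zbtb17, which encodes the MYC partner MIZ1, passed the detection call on neither array. Genes that set how long MYC proteins last had a median of 0.24, with 13 of 15 measured, 0 past 2-fold and 10 above the median gene. Highest were the phosphatase subunit gene Ppp2r5a (0.87) and the ubiquitin ligase gene Huwe1 (0.87), and lowest was Fbxw7, the ubiquitin ligase that marks MYC for destruction (0.03). The 2 probes of Fbxw7 lay at -0.28 and 0.34, so its small mean does not show an absence of change. Cip2a, an inhibitor of the phosphatase that destabilises MYC, was seen in SoNar-low cells alone and was at least 1.24-fold lower in SoNar-high cells.

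The corepressors that MXD and MNT bring to DNA were all measured, and 1 of the 17 passed 2-fold, on the lower side, where 4.88% of all genes lay. That gene was Arid4b, a subunit of the SIN3 complex, with 92.1 units on the SoNar-high and 489 units on the SoNar-low array (-2.26) by 1 probe. Sin3a, the scaffold that MXD proteins bind, was at 0.57, and Sap130 (0.69) was the highest, while the nuclear corepressor gene Ncor1 (-0.45, probes from -1.07 to -0.11) was second lowest. The list's median of 0.21 lay 0.04 above the median gene. The partners of MGA in its Polycomb complex, 9 of 9 measured, had a median of 0.17 with 0 past 2-fold. Yaf2 (0.95, probes at 0.90 and 1.01) and its paralogue Rybp (0.90), both of which bind the RING proteins of the complex, were highest, and Ring1 (-0.50) and the repressor gene E2f6 (-0.23) lowest.

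**Figure D4:**
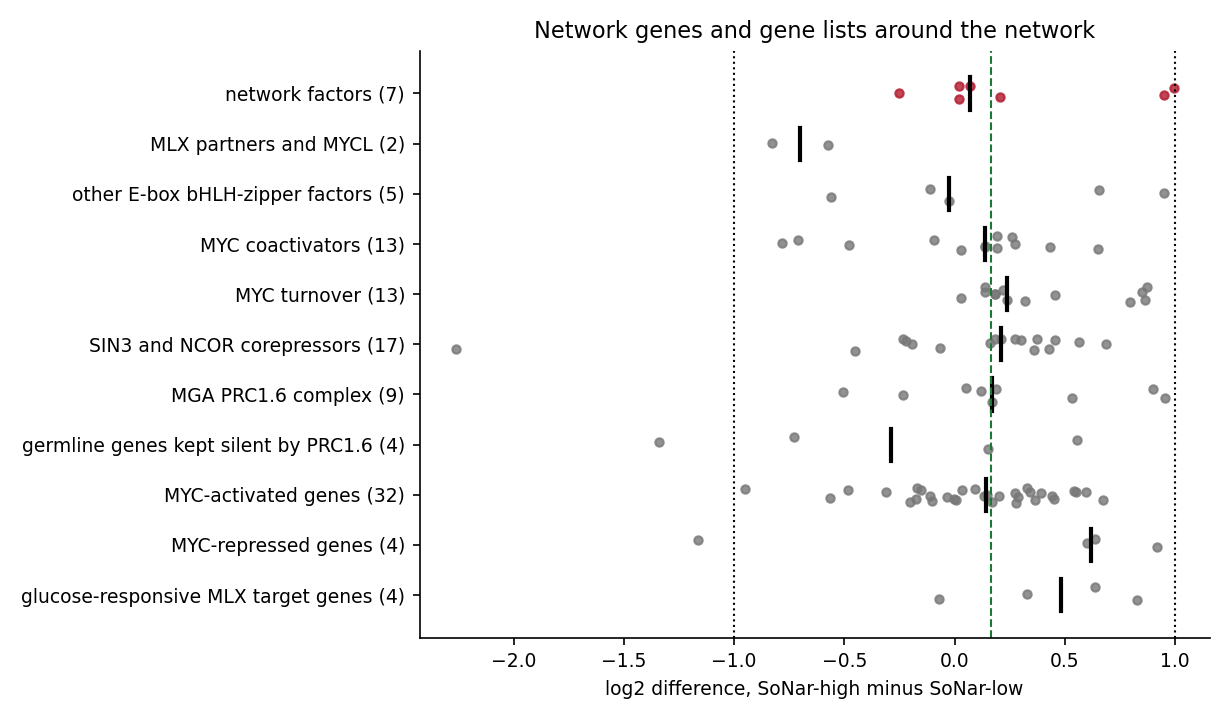
Log2 difference (SoNar-high minus SoNar-low, horizontal axis) of each measured gene of the network (red) and of 10 gene lists around it (grey), with the number measured in brackets; black bars are medians, the dashed line the median of all genes (0.17) and dotted lines 2-fold. The network's Max and Mnt lie beside the 2-fold line, the MLX partners Mlxip and Mlxipl lie below 0, and Arid4b (-2.26) is the furthest gene.

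Across the processing settings Max and Mnt kept the same side. Relative to the median gene of each setting Max lay between 0.54 and 1.00 and Mnt between 0.48 and 0.96 in all 13 alternatives, and before that subtraction each was at least 2-fold higher in 2 of them. Median scaling, centring and percentile choices shift every gene alike, so these relative values could not change there. Filter, outlier and probe choices left the single probe of each gene as it was and moved only the median gene. Settings that could change the values were normexp background correction, quantile normalization, loess and the series matrix. In that order Max lay at 0.79, 0.58, 0.66 and 0.54 and Mnt at 0.65, 0.53, 0.60 and 0.48. Mxd3, also with a single probe, lay below the median gene in all 12 alternatives that measured it. Under the settings that could change its value it lay at -0.16, -0.05, -0.11 and -0.06, in the same order. Mga lay above the median gene in 6 of 12, Mlx in 11 of 12 and Mxd1 and Mxd4 in 2 of 13 each.

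**Figure D5:**
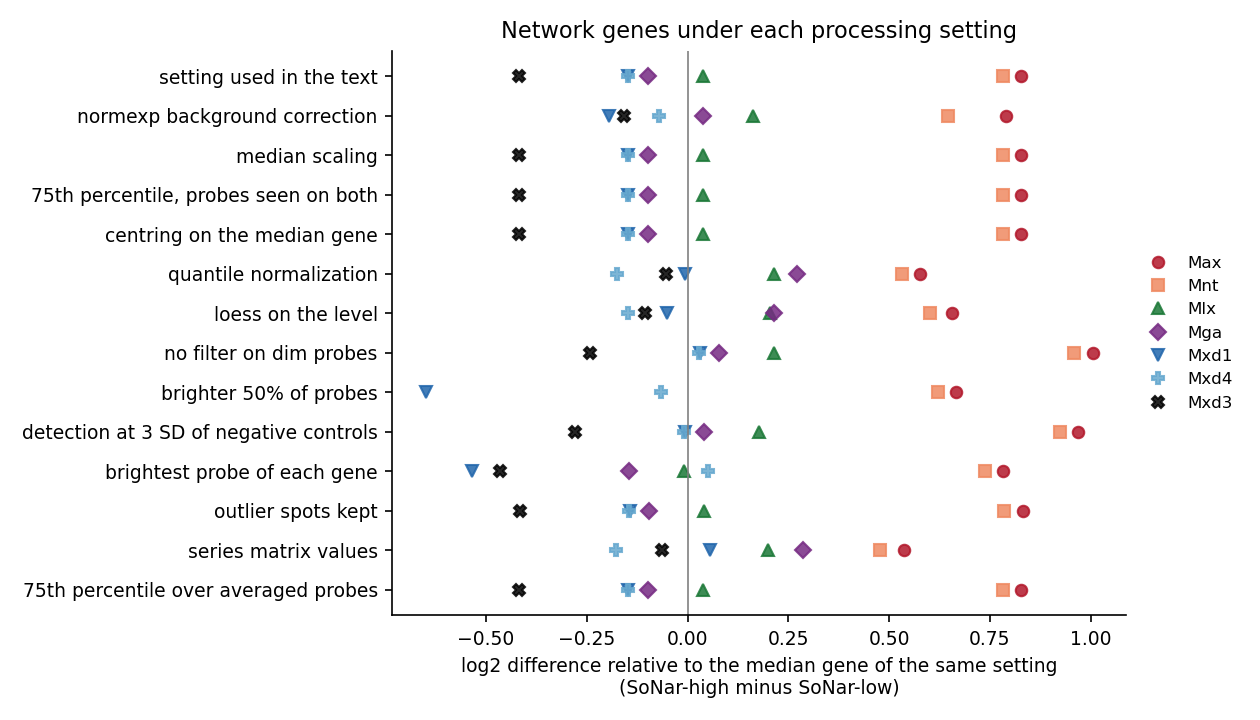
Log2 difference of each measured network gene relative to the median gene (horizontal axis, SoNar-high minus SoNar-low) under the setting used in the text and 13 alternatives (rows). Max and Mnt stand apart from the other genes in every row, between 0.48 and 1.00, and the other 5 genes lie between -0.65 and 0.29. Rows that shift every gene alike repeat the same relative values.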

How the data were processed

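Intensity values of 2 Agilent 1-colour arrays were deposited by the authors, extracted with Feature Extraction, whose version is 11.0.1.1 per the file headers and 9.1 per the submitters' processing notes. The processed signal is background-subtracted and detrended, with its own error estimate, and is not scaled between arrays, per the file headers. The deposited series matrix holds log2 values of the same arrays with a median of 5.90 on each, and their centring is unknown. A plain shift of each array does not give them. Max was at 0.76 and Mlx at 0.42 in the matrix, against 0.995 and 0.20 in the text and 0.77 and 0.41 with quantile normalization.

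Control spots and outlier-flagged spots were left out and replicate spots averaged on the log2 scale, which gave 39085 probes. Each array was scaled to the 75th percentile of its non-control spots. Unversioned accessions were matched to current symbols in a RefSeq gene table of GRCm38.p6, used for names only, since the array design was annotated on another build: 27115 probes matched 20618 genes. A gene's difference averages those of its probes that passed the detection call on both. For a gene seen on 1 array only, the scaled level where it was seen was divided by a level of the other array. That level was the array's detection limit (its lowest signal well above background) or the probe's own signal, whichever was higher. With the limit this gives a bound. With the probe's own signal, as for G6pc, it gives only a ratio with an undetected signal.

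Genes named in the text are all members, the 2 highest and 2 lowest genes of each list, and Mycl, Mlxip, Mlxipl, Txnip, Odc1, Ncl and Fbxw7. Others named (G6pc, Cip2a, Zbtb17 and the B-lineage genes not detected) were chosen after their values were seen. A gene that this rule names is not reported here. With 2 arrays no gene was named for likeness of pattern. The members and lists were chosen with earlier results of these data known. The gene step was tested on simulated data over 10521 genes for SoNar-high against SoNar-low. All 100 raised and all 100 lowered genes, changed 3-fold, passed 2-fold, with 0 unchanged ones. Only the spot spread was simulated, which is small beside a 3-fold change. The run therefore checks the steps and not how reliable a 2-fold call is in these data. Python 3.11.15, numpy 2.4.6, pandas 2.3.3, statsmodels 0.14.6, R 4.3.3 and limma 3.58.1 were used.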

Additional observations from a re-analysis of the deposited data

How the results depend on the processing

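With 1 array per population no result has a test; that number, and signal over background for Myc, Mycn and Mxi1, sets the precision. No paired analysis was possible because each group holds 1 array. Values of a gene or probe counted as moved when they changed by more than the spot spread (0.15): of 193 such values 110 moved, 83 did not and 0 changed sides while past 2-fold. In the setting used in the text only the dim Myc and Mycn probes were past 2-fold, so that 0 does not show stable directions. Smaller differences did change sign. Mxd3, at -0.25 in the text, was at 0.36 with median scaling. Mga, at 0.07 in the text, was at -0.17 with the 75th percentile over probes that both arrays detected. The median member difference, 0.07 in the text, was 0.68 with median scaling, -0.17 with the 75th percentile over probes that both arrays detected, -0.10 with centring on the median gene, 0.22 with normexp background correction (offset 50), 0.41 with quantile normalization, 0.26 with loess on the level (span 0.3), 0.61 with the brighter 50% of probes (4 members) and 0.42 with the series matrix. Median scaling, centring and the choice of percentile shift every gene alike. The count of members at least 2-fold higher was 0 in the text, 2 (Max and Mnt) with median scaling, with the 75th percentile over averaged probes (chosen after seeing the data) and at a threshold of 1.5-fold. With no filter on dim probes it was 1 (Mycn) and the count at least 2-fold lower was 1 (Myc), both against background signals. Detection at 3 SD of the negative controls, outlier spots kept, the brightest probe of each gene and a 3-fold threshold left both counts at 0. Among all genes past 2-fold 25.7% were higher (177 higher, 513 lower), but 95.9% with median scaling (3306 and 140), 6.67% with the 75th percentile over probes that both arrays detected (61 and 853), 8.62% with centring on the median gene (70 and 742), 47.0% with quantile normalization (348 and 392) and 54.5% with the series matrix (430 and 359). The counts were 60 and 263 with normexp, 1752 and 2777 with no filter on dim probes, 90 and 123 with the brighter 50% of probes, and 384 and 1462 with detection at 3 SD. The cause of these moves was not tested.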

Other observations

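Other factors that read the same E-box lay on both sides of the median gene. Of 9 such bHLH-zipper genes 8 had a probe and 5 were measured, with a median of -0.03 and 0 past 2-fold. Tfe3, which encodes a regulator of lysosomal genes, was at 0.95 by the 1 measured of its 2 probes (201 units on the SoNar-high and 115 units on the SoNar-low array). Usf2 was at 0.65 with probes at 0.38 and 0.93. Tfeb, a close relative of Tfe3, was at -0.56, and the sterol-responsive factor gene Srebf2 at -0.11 with probes at -0.58 and 0.36. The difference of Tfe3 depended on the setting and lay from -0.11 to 1.14 relative to the median gene. It fell below the median gene only where its second, dim probe was let in. There it was at -0.07 with no filter on dim probes and -0.11 with detection at 3 SD of the negative controls.

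Of 10 genes that MYC is known to repress 4 were measured and 5 passed the detection call in SoNar-low cells alone, against 51% and 26.4% of all genes. For most of these 5 the scaled SoNar-low level lay under the SoNar-high array's detection limit of 0.0977. Their detection on 1 array alone therefore does not show a lower level in SoNar-high cells. Hbp1, a transcriptional repressor that slows the cell cycle, was at 0.92 with probes at 0.91 and 0.93, and the cell cycle inhibitor genes Cdkn1b and Cdkn1c were at 0.64 and 0.60, while the stress gene Gadd45a was past 2-fold lower at -1.17. Of 14 germline genes that the MGA complex keeps silent in other tissues 4 were measured and 7 were detected on neither array, against 51% and 22.5% of all genes. Taf7l, a germline relative of a general transcription factor, gave 687 units on the SoNar-high and 1924 units on the SoNar-low array (-1.34). Sohlh2, a germ cell transcription factor gene, was at -0.73, Sycp3, which encodes a protein of the meiotic chromosome axis, at 0.15, and Zcwpw1, a reader of histone marks in meiosis, at 0.56.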
